A study of Mus musculus with 4 samples.

Results

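The p53 pathway was examined in NIH-3T3:Per2-Luc cells, mouse fibroblasts that carry a luciferase driven by the *Per2* promoter, through 32 genes for p53, its inhibitors and its target genes. The genes were taken by symbol from the annotation of the array, and each was read from its brightest probe over the arrays. All 32 genes had a probe, 41 probes in all, among 30174 gene names with a value on every array.

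p53, encoded by *Trp53*, is a transcription factor that is held at a low level by the ubiquitin ligase Mdm2 and is stabilized after DNA damage and oxidative stress, largely through changes to the protein. It then binds response elements made of a pair of similar repeats and transcribes genes for cell cycle arrest, DNA repair, antioxidant defense and apoptosis, and also for its own inhibitors, which closes feedback loops. In fibroblasts, p21, encoded by *Cdkn1a*, is the best known executor of the arrest.

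Each of 4 conditions was measured once, on 4 one-color arrays of a single slide. Control cells received 0 mM H2O2 and fresh medium, and their label places them at 4 h. The other cells received a cOS-pulse, a critical oxidative stress of 5 mM H2O2 for 10 min, and were collected 4 h, 20 h or 32 h later. All 4 cultures were of the same reporter line, and the line is known to lack the *Cdkn2a* locus, which encodes an inhibitor of Mdm2. With 1 array per condition there was no replicate of a culture, so no test was made and no p-value is given, and every ratio after the pulse was taken over the same control array. There was no control at 20 h or 32 h. In these bulk samples, fewer cells with a transcript and less of it per cell cannot be told apart.

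A level is the log2 signal of a probe minus the 75th percentile of its array. It is compared here only with the same probe on another array. A probe was called detected if 50% or more of its spots exceeded the background clearly, by the flag of the scanner software, which held for 52.7% to 59.1% of 39429 probes per array, most of them at 4 h, and no spot was saturated. Ratios are called measured if the probe was detected on each of the 2 arrays. If it was detected on only 1, the ratio is a bound over the higher of the lowest detected signal and its own signal on the other array. The errors given are spot errors of the scanner software for both arrays. They lay between 0.20 and 0.30 on the log2 scale for the measured ratios of the members and do not cover differences between cultures. All 9 fibroblast markers were detected on the 4 arrays, whereas *Epcam*, *Cdh1* and *Krt18* of 5 epithelial markers, *Ptprc* of 4 blood markers and *Tek* of 3 endothelial markers were detected on none. Other markers of these cell types gave signals, and the 6 that were detected both in the control and at 4 h read higher at 4 h, *Cd68* from -1.33 to 0.75, *Cd79a* from -3.36 to -0.96, *Cd3e* from -0.81 to -0.56, *Krt8* from -0.89 to 0.28, *Pecam1* from -3.58 to -2.88 and *Cdh5* from -4.12 to -2.25. Of the fibroblast markers, 8 of 9 read lower at 4 h, with differences down to -1.55, as for *Pdgfra* (4.46 to 2.91) and *Pdgfrb* (2.70 to 1.34). The part of these shifts in the results at 4 h was not tested.

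At 4 h after the pulse, 21 of the 29 members with a measured ratio stood above the control, as did 60.5% of all genes with one. Of 30 members detected on either array, 12 were at least 2-fold higher, namely *Cdkn1a*, *Tnfrsf10b*, *Plk2*, *Sesn2*, *Zmat3*, *Plk3*, *Ccng1*, *Gadd45a*, *Trp53inp1*, *Mdm2*, *Aen* and *Eda2r*. Over all genes detected on either array the same threshold was passed by 11% (2047 of 18615). The 3 members at least 2-fold lower were *Ddb2*, *Sesn1* and *Dcxr*, where 8.21% of all genes were lower. The median log2 ratio of the 29 members was 0.66, against 0.17 for all genes with one, and the members ranged from -1.10 to 3.57. *Pmaip1* and *Perp*, a BH3-only gene and a membrane protein gene of p53-dependent apoptosis, were not well above background on any array.

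These counts were taken again under 5 other scalings, which moved the median of all genes at 4 h by between -0.12 and -0.43 on the log2 scale. Under each of them 11 members were higher and 4 lower, because *Aen* passed below 2-fold and *Sesn3* above it on the lower side. Among all genes past 2-fold, the share that was higher went from 57.3% to 24.7% when the spike-in controls set the scale, 28.6% for the median, 34.4% for unscaled signals, 42.3% after quantile normalization and 46.4% for a 75th percentile over commonly detected probes. The share above 0 of all genes with a measured ratio, bounds left out, fell from 60.5% to 31.3% with the spike-in controls. The members above 0 went from 22 to 19 of 30. This count includes the bound of *Eda2r*, which was above 0 in both, so it is not built like the share. Among measured ratios alone it was 21 of 29 before the change of scale.

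**Figure D1:**
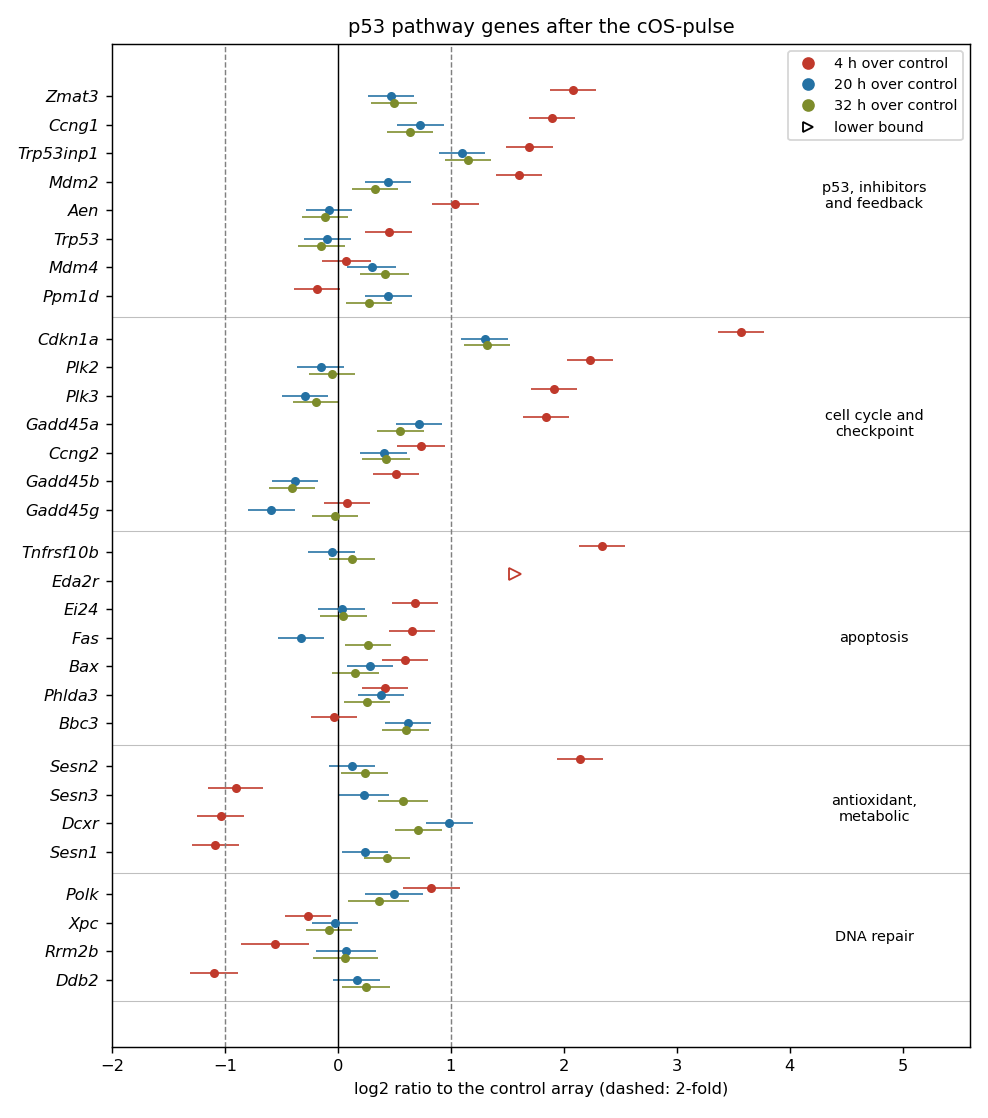
Log2 ratio to the control array (x axis) of each p53 pathway gene with a ratio, grouped by role, at 4 h, 20 h and 32 h after the cOS-pulse. Bars are spot errors of both arrays, the open triangle is a lower bound and dashed lines mark 2-fold. The points at 4 h reach 3.57 for *Cdkn1a*, while at 20 h and 32 h *Cdkn1a* and *Trp53inp1* lie past the line.

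The transcript of p53 itself differed little. *Trp53* (NM_011640, probe at chr11:69404204-69404263 of mm9) had a control level of -0.87 and levels of -0.42, -0.96 and -1.02 at 4 h, 20 h and 32 h. Its log2 ratio at 4 h was 0.45 ± 0.21 (spot error), 1.36-fold, and lay between 0.02 and 0.45 over the scalings, so that its size, though not its sign, depended on how the arrays were set against each other. At 20 h and 32 h it was -0.09 and -0.15.

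Among the 8 genes grouped as p53, its inhibitors and its feedback, 5 were at least 2-fold higher at 4 h and none lower. Over all genes these shares were 11% and 8.21%. The median of the 8 was 1.32. The group also holds *Zmat3* and *Aen*, target genes of p53, and both are among the 5. *Mdm2*, the ligase that p53 transcribes and that marks p53 for degradation, had levels of 3.82 in the control and 5.43, 4.26 and 4.15 after the pulse (NM_010786, chr10:117126010-117126069). It was 3.05-fold higher at 4 h (1.61 ± 0.20), and 1.36-fold and 1.26-fold at the later times. The high array was the one at 4 h. The later 2 lay above the control by more than the spot error of 0.20, with log2 ratios of 0.44 and 0.33. Over the scalings these reached up to 0.77 at 20 h and 0.51 at 32 h. *Mdm4*, a relative of Mdm2 that blocks the activation domain of p53, read -2.49, -2.42, -2.20 and -2.08, a log2 ratio of 0.07 ± 0.22 at 4 h that turned negative under all 5 other scalings. Its second probe gave 0.86 ± 0.25. *Ppm1d*, which encodes the phosphatase Wip1 that reverses damage signaling, gave -0.18 at 4 h, 0.45 at 20 h and 0.28 at 32 h, so neither *Mdm4* nor *Ppm1d* shared the size of the *Mdm2* difference.

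*Zmat3*, a zinc finger RNA-binding protein gene and p53 target, had levels of 1.11, 3.19, 1.58 and 1.61 (NM_009517, chr3:32233831-32233890). This was 4.23-fold at 4 h (2.08 ± 0.20). *Ccng1*, the cyclin G1 gene, whose product acts with a phosphatase on Mdm2, read 1.03, 2.93, 1.76 and 1.67 (NM_009831, chr11:40562427-40562486), 3.72-fold at 4 h (1.90 ± 0.20). Both were highest at 4 h, and the log2 ratios left at 32 h were 0.50 for *Zmat3* and 0.64 for *Ccng1*. *Aen*, which encodes a nuclease of apoptotic cells, stood at 4.41, 5.45, 4.33 and 4.29 (NM_026531, chr7:86053207-86053266). Its ratio of 1.04 ± 0.20 at 4 h lay within its error of the threshold, its second probe gave 0.94, and it was under 2-fold with each other scaling (0.62 with the spike-in controls).

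*Trp53inp1*, which encodes a nuclear protein that promotes p53 activity, was past 2-fold at all 3 times. From 0.75 in the control, the level went to 2.45, 1.85 and 1.90 at 4 h, 20 h and 32 h (NM_021897, chr4:11101174-11101233). The log2 ratios were 1.70 ± 0.20 (3.24-fold), 1.10 ± 0.20 (2.15-fold) and 1.15 ± 0.20 (2.22-fold). All 3 arrays after the pulse lay above the control. Its second probe gave 1.45 ± 0.28 at 4 h and 0.95 at both later times, just under 2-fold.

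**Figure D2:**
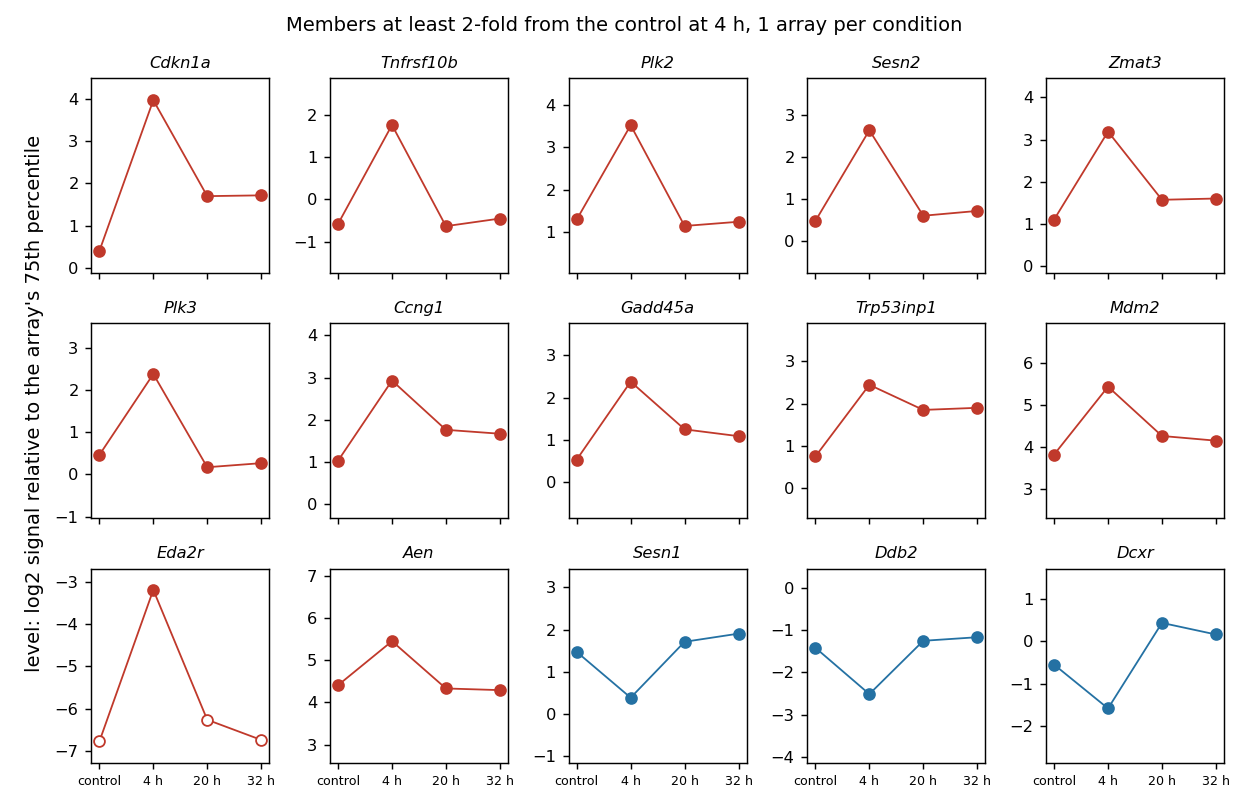
Level of the 15 p53 pathway genes at least 2-fold from the control at 4 h (red, higher; blue, lower; open, not detected) on each of the 4 arrays, as log2 signal minus the 75th percentile of the array (y axis), against condition (x axis). The y axes start at different values and span the same number of units, so heights of steps and not positions can be set side by side. *Cdkn1a* steps from 0.40 to 3.97 at 4 h and then reads 1.70 and 1.72.

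The cell cycle and checkpoint genes included the largest measured ratio of the 32 genes, that of *Cdkn1a*. Of 7 genes, 4 were at least 2-fold higher at 4 h and none lower, beside 11% and 8.21% of all genes, and the median was 1.84. *Cdkn1a*, the p21 inhibitor of cyclin-dependent kinases, had a control level of 0.40 and levels of 3.97, 1.70 and 1.72 at 4 h, 20 h and 32 h (NM_007669, chr17:29237377-29237436). It was 11.9-fold higher at 4 h (3.57 ± 0.20), 2.46-fold at 20 h (1.30 ± 0.20) and 2.49-fold at 32 h (1.32 ± 0.20). The probe was printed as 10 spots, whose log2 levels had an SD of 0.059 on the control array (n = 10 spots) and 0.038 at 4 h (n = 10 spots), so the arrays did not overlap in any spot, from 0.30 to 0.52 against 3.91 to 4.04. This spread is that of 1 RNA sample on 1 array.

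The 3 probes of *Cdkn1a* differed in the later hours. The probe furthest upstream (NM_001111099, chr17:29227986-29228045) had levels of -3.91, -1.94, -4.54 and -4.40. It was 3.93-fold higher at 4 h (1.97 ± 0.26) but lay below the control later, at -0.63 ± 0.32 (20 h) and -0.49 ± 0.34 (32 h). Its later levels were near the lowest detected levels of those arrays, -5.11 at 20 h and -4.73 at 32 h. Ratios of this probe alone under the other scalings were not computed. The middle probe (ENSMUST00000122348, chr17:29235299-29235358) was not detected in the control and was at least 5.84-fold, 2.45-fold and 2.61-fold higher at 4 h, 20 h and 32 h. All 3 were above the control at 4 h, and at 20 h and 32 h the upstream probe lay below it while the other two lay above it. The median over the probes with a measured ratio was also taken in place of the brightest probe. It left out the middle probe, whose ratios are bounds past 2-fold at all 3 times. By this median the log2 ratio of *Cdkn1a* was 2.77 at 4 h, 0.34 at 20 h and 0.41 at 32 h. Which transcripts the probes match beyond the names in the array annotation was not analysed here.

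**Figure D3:**
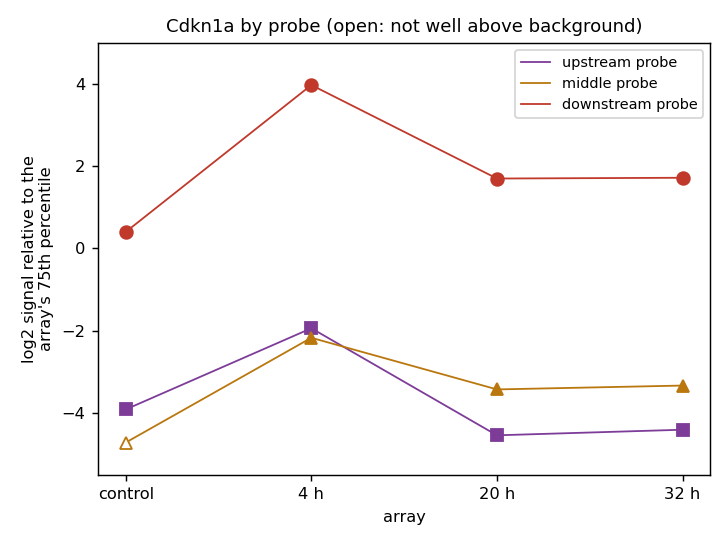
Log2 level (y axis) of the 3 probes of *Cdkn1a* on the 4 arrays (x axis), with open symbols where a probe was not detected. The 3 lines go up from the control to 4 h, and at 20 h and 32 h the upstream probe lies at -4.54 and -4.40, under its control level of -3.91.

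Promoter sequences of RefSeq (GRCm38.p6, from 250 bases before to 50 after a gene start) were given for 24 of the 32 members in 31 windows. A p53 response element was taken as 2 adjoining repeats of its consensus, with both cores intact and at most 3 mismatches. It was found on either strand in 5 of the 31 windows (16.1%), those of *Cdkn1a*, *Aen*, *Bbc3* and *Trp53*. The 2 windows of *Aen* overlap and hold the same element. Of 32851 windows of all genes, 0.572% held one. The members were chosen as p53 and its target genes, so the higher share among them is no test. Elements outside the windows were not searched. The pair of CATG separated by 6 bases, the spacing of the cores in such an element, lay in 3.23% of the windows of the members, only in *Cdkn1a*, where it overlaps the response element, and in 0.712% of all windows. The letters TGATGNAA, an element bound by ATF4 and related factors, lay in 6.45% (*Gadd45g* and *Polk*) against 3.97%. A match describes the letters in the window and is not a measured binding site. For each of the 4 genes with a response element, 1 window is printed to show where the element lies in genes of such different responses, with the 20 matched bases in capitals.
Cdkn1a, chr17:29090729-29091028, plus strand: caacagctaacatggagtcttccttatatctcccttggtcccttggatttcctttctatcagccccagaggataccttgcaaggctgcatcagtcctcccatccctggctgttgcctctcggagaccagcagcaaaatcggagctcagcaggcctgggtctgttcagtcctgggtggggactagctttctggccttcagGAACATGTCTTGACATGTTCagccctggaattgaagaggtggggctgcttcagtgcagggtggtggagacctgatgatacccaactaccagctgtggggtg
Aen, chr7:78895677-78895976, plus strand: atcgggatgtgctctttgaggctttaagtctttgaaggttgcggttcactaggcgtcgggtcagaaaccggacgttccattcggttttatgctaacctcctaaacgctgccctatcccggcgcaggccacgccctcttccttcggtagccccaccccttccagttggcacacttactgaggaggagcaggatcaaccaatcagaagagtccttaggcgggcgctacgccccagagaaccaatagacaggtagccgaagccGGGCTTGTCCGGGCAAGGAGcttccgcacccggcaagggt
Bbc3, chr7:16309333-16309632, plus strand: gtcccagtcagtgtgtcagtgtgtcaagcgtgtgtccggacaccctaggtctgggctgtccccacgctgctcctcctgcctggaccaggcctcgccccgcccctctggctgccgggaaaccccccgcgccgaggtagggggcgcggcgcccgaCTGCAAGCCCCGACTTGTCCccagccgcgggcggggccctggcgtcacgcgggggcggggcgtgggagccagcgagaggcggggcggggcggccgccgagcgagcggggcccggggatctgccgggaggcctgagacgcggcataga
Trp53, chr11:69580109-69580408, plus strand: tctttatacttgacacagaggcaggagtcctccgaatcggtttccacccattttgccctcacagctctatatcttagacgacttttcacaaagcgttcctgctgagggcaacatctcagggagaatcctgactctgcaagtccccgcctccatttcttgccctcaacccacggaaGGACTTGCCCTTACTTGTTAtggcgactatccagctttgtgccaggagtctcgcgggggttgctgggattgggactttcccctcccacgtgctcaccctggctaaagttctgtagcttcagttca

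In *Cdkn1a* the element has 1 mismatch and lies from -51 to -32 relative to the first base of the gene in RefSeq, counted as 0, and the window of its other start holds none. The elements of the other genes have 3 mismatches each, at 10 to 29 in *Aen*, -97 to -78 in *Bbc3* and -75 to -56 in *Trp53*. The second, overlapping window of *Aen* holds the same element at -121 to -102. Of these 4 genes, *Cdkn1a* was 11.9-fold and *Aen* 2.06-fold higher at 4 h, whereas *Trp53* and *Bbc3* had log2 ratios of 0.45 and -0.03. The value of *Cdkn1a* is that of its brightest, downstream probe, and the probe furthest upstream gave 3.93-fold. Which start gave the transcripts that each probe reads was not analysed.

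The polo-like kinase genes of stress checkpoints passed 2-fold at 4 h and at neither later time. *Plk2* had levels of 1.29, 3.52, 1.14 and 1.24 (NM_152804, chr13:111190915-111190974), 4.70-fold at 4 h (2.23 ± 0.20). *Plk3* had levels of 0.46, 2.38, 0.17 and 0.27 (NM_013807, chr4:116801317-116801376), 3.77-fold (1.92 ± 0.20). At 20 h and 32 h the log2 ratios of *Plk2* were -0.15 and -0.05 and those of *Plk3* -0.29 and -0.19, so the array at 4 h stood alone, though without scaling both genes lay above 0 at 20 h.

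Of the Gadd45 family, small proteins that bind cell cycle and stress kinases, only *Gadd45a* passed 2-fold, with each of the other scalings as well. Its levels were 0.53, 2.38, 1.25 and 1.09 (NM_007836, chr6:66985376-66985435), 3.59-fold at 4 h (1.84 ± 0.20), and the later log2 ratios were 0.72 and 0.55. *Gadd45b* had log2 ratios of 0.52, -0.38 and -0.41, and *Gadd45g* of 0.08, -0.59 and -0.03. The 3 genes thus had different profiles, and the sign of *Gadd45g* at 4 h changed under 4 of 5 other scalings. *Ccng2*, which encodes cyclin G2, an inhibitor of the cycle, lay at 0.74 ± 0.21, 0.40 and 0.42.

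Among the 9 apoptosis genes, 7 were detected at 4 h or in the control. The 2 past 2-fold, *Tnfrsf10b* and *Eda2r*, were receptor genes and higher, beside 11% of all genes. *Tnfrsf10b*, the receptor of TRAIL, had levels of -0.58, 1.76, -0.63 and -0.45 (NM_020275, chr14:70184141-70184200). It was 5.06-fold higher at 4 h (2.34 ± 0.21), with log2 ratios of -0.05 and 0.13 later. *Eda2r*, the receptor of an ectodysplasin isoform, was detected at 4 h alone, with signals of -6.78, -3.19, -6.27 and -6.74 (NM_001161433, chrX:94534281-94534340), and was at least 2.97-fold higher there. The bound of its other probe was 1.76-fold. *Fas*, a death receptor gene, did not reach 2-fold and read 2.82, 3.48, 2.49 and 3.08, with log2 ratios of 0.66, -0.33 and 0.26.

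The remaining detected genes of the apoptosis group stayed under 2-fold. *Aen*, the nuclease gene of apoptotic cells, was counted above with p53 and its feedback and is not among them. *Bax*, the pore-forming effector, had log2 ratios of 0.59, 0.28 and 0.16. *Bbc3*, which encodes the BH3-only protein Puma, had -0.03 ± 0.20 at 4 h and 0.62 (1.54-fold) and 0.60 (1.51-fold) at 20 h and 32 h, so its ratio was larger at both later times than at 4 h. *Ei24*, an endoplasmic reticulum protein gene, had 0.68, 0.03 and 0.05, and *Phlda3*, which encodes an inhibitor of Akt, had 0.42, 0.38 and 0.26. These 4 ratios at 4 h lay between that of *Bbc3* and that of *Ei24*, all short of 2-fold.

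The antioxidant and metabolic genes went both ways at 4 h, 1 of 4 at least 2-fold higher and 2 lower, beside 11% and 8.21% of all genes. The sestrins, stress proteins that restrain mTORC1 and support peroxide defense, were split. *Sesn2* had levels of 0.48, 2.63, 0.61 and 0.72 (NM_144907, chr4:132048858-132048917), 4.43-fold higher at 4 h (2.15 ± 0.20). *Sesn1* had levels of 1.47, 0.39, 1.71 and 1.90 (NM_001162908, chr10:41628012-41628071), 2.12-fold lower at 4 h (-1.08 ± 0.20). *Sesn3* had -2.55, -3.45, -2.31 and -1.97 and was 1.87-fold lower (-0.91 ± 0.24), short of the threshold here, past it under the 5 other scalings and -0.45 with normexp background correction. The array at 4 h was thus the highest of the 4 for *Sesn2* and the lowest for *Sesn1* and *Sesn3*. At 32 h the log2 ratios were 0.24, 0.43 and 0.58 for *Sesn2*, *Sesn1* and *Sesn3*.

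*Dcxr*, which encodes a carbonyl and xylulose reductase, had levels of -0.55, -1.59, 0.44 and 0.16 (NM_026428, chr11:120587276-120587416). It was 2.05-fold lower at 4 h (-1.04 ± 0.21) and 1.98-fold and 1.64-fold higher at 20 h and 32 h (0.99 ± 0.20 and 0.71). Its second probe gave -0.89, 1.02 and 0.79. The array at 4 h lay below the control and the later 2 above it with both probes, close to 2-fold in each direction.

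Of the 4 DNA repair genes none was at least 2-fold higher at 4 h and 1 was lower, beside 11% and 8.21% of all genes. With so few genes these counts do not set the repair genes apart from all genes. *Ddb2*, the damage sensor of nucleotide excision repair, had levels of -1.42, -2.52, -1.25 and -1.17 (NM_028119, chr2:91052013-91052072), 2.14-fold lower at 4 h (-1.10 ± 0.22). *Xpc*, its partner in damage recognition, gave -0.27 ± 0.20, and *Rrm2b*, the p53-inducible subunit of ribonucleotide reductase, -0.56 ± 0.30. *Polk*, a translesion polymerase gene, gave 0.83 ± 0.25. At 20 h and 32 h the 4 genes lay between -0.08 and 0.49, so *Ddb2* was low on the array at 4 h alone. With normexp background correction *Ddb2* and *Dcxr* were under 2-fold at 4 h (-0.82 and -0.88), as was the bound of *Eda2r* (0.93).

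At 20 h, 2 of 29 members were at least 2-fold higher, *Cdkn1a* and *Trp53inp1*, and none lower, beside 1.44% higher and 3.51% lower of 17227 genes. Without scaling, 5 members were higher, and the share of higher among all genes past 2-fold went from 29.1% to 64.2%. The log2 ratio was above 0 in 20 of 29 members, where it was in 49.9% of all genes with a measured ratio, and the medians were 0.24 and -0.0011. Without scaling these were 27 of 29 members and 86.2% of all genes, and with scaling by the median 24 members and 64.2%. At 32 h, *Cdkn1a* and *Trp53inp1* were again the 2 members at least 2-fold higher and none was lower, beside 2.24% and 2.77% of 16899 genes, a split of 44.7% higher that went to 62.9% without scaling. Here 22 of 29 members lay above 0, against 50% of all genes, with medians of 0.26 and -0.00064. Without scaling these were 27 members and 73.4%. The ratios of *Trp53inp1* at both times lay within their spot error of 2-fold. *Cdkn1a* fell short of 2-fold at both in the median of its probes with a measured ratio. That median left out its middle probe, whose bounds were past 2-fold at both times. Both comparisons share the control array with each other and with that at 4 h, so a deviation of the control culture would enter all 3.

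The later 2 arrays can be set against each other without the control. From 20 h to 32 h no member differed by 2-fold in either direction, beside 0.926% higher and 2.06% lower at 20 h over 32 h of 17169 genes. The difference furthest from 0 was that of *Fas*, 1.51-fold lower at 20 h (-0.59 ± 0.20), followed by *Gadd45g* at -0.56. *Cdkn1a* differed by -0.02 and *Mdm2* by 0.11, both under their spot error.

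Other genes around p53 were read from lists of its regulators, its further targets and the genes repressed downstream of p21. Of 17 detected regulators none was at least 2-fold higher at 4 h and 3 were lower, beside 11% and 8.21% of all genes. The median was 0.03, beside 0.17 for all genes. The count lower was 6 when scaled by the median or the spike-in controls, 5 unscaled and 1 with normexp, and the median was negative under the 5 other scalings, down to -0.40. The lower genes were the damage kinase genes *Prkdc* (-1.50 ± 0.23), *Atm* (-1.27 ± 0.22) and *Chek2*, at least 2.63-fold lower. *Cdkn2a* was detected on none of the 4 arrays. Of 44 further targets detected, 8 were higher and 4 lower, again beside 11% and 8.21% of all genes. Their median was 0.02, beside 0.17 for all genes. With the other scalings 6 or 7 were higher and 5 to 9 lower, and the median was negative, down to -0.40. The measured differences furthest above 0 were those of *Ndrg1* (2.65), a stress-induced differentiation gene, *Slc19a2* (1.98), the thiamine transporter, *Ier3* (1.75), an immediate early gene, *Psrc1* (1.69), a spindle protein gene, and *Btg2* (1.58), an antiproliferative gene. *Cd82*, a metastasis suppressor gene, and *Gdf15*, a stress cytokine gene, were detected at 4 h alone and were at least 3.59-fold and 2.02-fold higher. Among those lower were the matrix gene *Thbs1* (-1.86), *Pml* (-1.41) of the nuclear bodies, and the phosphatase gene *Ptp4a3* (-1.24). At 20 h and 32 h none of the further targets was at least 2-fold higher, beside 1.44% and 2.24% of all genes. *Thbs1* was lower at both times (-1.65 and -1.38).

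The genes that the DREAM complex represses downstream of p21 are mitotic and replication genes. At 4 h, 15 of 17 detected were at least 2-fold lower and none higher, beside 8.21% and 11% of all genes. The median was -1.42, beside 0.17 for all genes. The mitotic checkpoint gene *Bub1b* (-3.31 ± 0.34), the mitotic kinase gene *Plk1* (-3.24), the cyclin genes *Ccnb1* (-2.80) and *Ccna2* (-2.74) and the proliferation marker *Mki67* (-2.18) were the 5 furthest below 0 among measured ratios, and *Cdc25c*, not detected at 4 h, was at least 2.75-fold lower. At 20 h and 32 h none passed 2-fold, beside 3.51% and 2.77% of all genes lower and 1.44% and 2.24% higher. The median was -0.14 at 20 h, or 0.19 without scaling, and -0.50 at 32 h, or -0.32 without scaling. *Cdkn1a* was thus highest and these genes were lowest on the same array, and no order in time between them can be read from 1 array per time point.

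**Figure D4:**
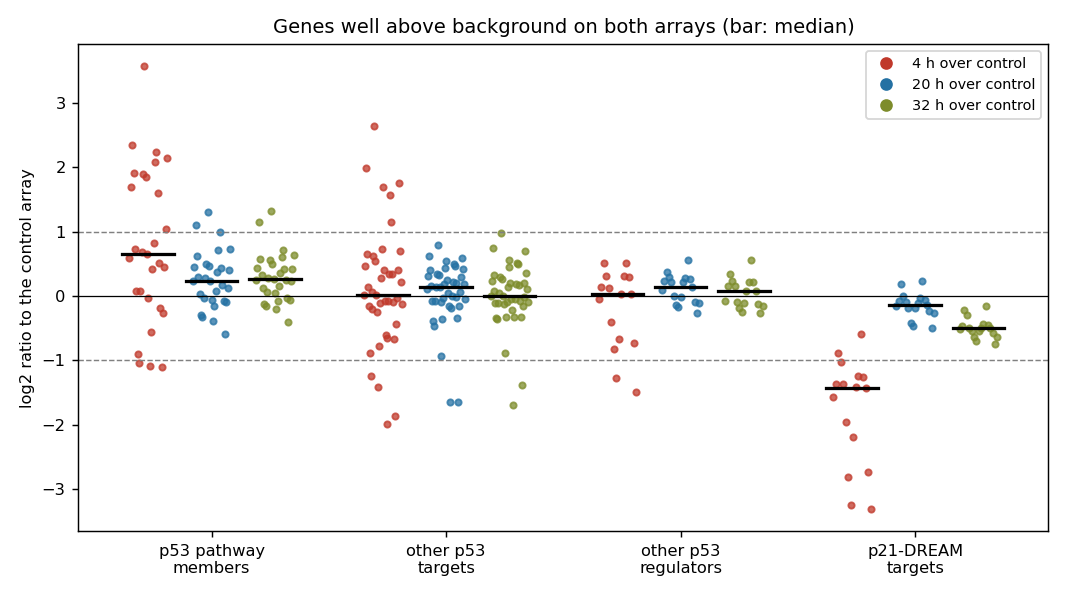
Log2 ratio to the control (y axis) of the genes of each list, 1 point per gene with a measured ratio, at 4 h, 20 h and 32 h, with a bar at the median. At 4 h the median is 0.66 for the 29 p53 pathway genes with a measured ratio, 0.03 for other regulators, 0.02 for other targets and -1.42 for the p21-DREAM targets.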

How the data were processed

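RNA of the 4 cultures was labeled with Cy3 and hybridized to 1 array each. The authors deposited, for each spot, a processed intensity from Agilent Feature Extraction 10.7.3.1, with background and spatial trend subtracted, together with its error and with other columns, the flags for outliers and for signals well above background. The authors also deposited a table of linear ratios, checked here to be each array's intensities over a constant of that array, with column medians of 0.0590 (control), 0.0757 (4 h), 0.0546 (20 h) and 0.0587 (32 h).

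From the deposited intensities, log2 values were averaged over the spots of a probe without an outlier flag (125 to 161 of 43020 spots per array were left out), and the 75th percentile of the array over 39429 probes was subtracted. A gene was read from its probe with the highest mean over the 4 arrays. The threshold was 2-fold. The number of arrays limits the precision, and the methods of the study name SAM, which was not run because pairs cannot be formed from 1 array per condition. Members and lists were chosen with earlier results of these data known. Named were all members, with all 4 levels for *Trp53*, *Mdm2*, *Cdkn1a* and those past 2-fold, and up to 5 genes each way of the other lists. *Cd82*, *Gdf15* and *Chek2*, which have bounds, and *Thbs1* at the later times were named after their values were seen. Some genes of the other lists are not reported here.

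Probe positions are those of the array annotation (mm9). Promoters are RefSeq sequences of GRCm38.p6, and coordinates were not converted between the builds. Exons and UTRs around the probes were not analysed here, nor were protein sequences. The alternatives were 5 scalings, normexp correction with an offset of 50 (limma 3.58.1, R 4.3.3), no detection filter, flagged spots kept, detection required on both arrays, the median over the probes of a gene, the probe brightest in the control, thresholds of 1.5-fold and 3-fold, and the deposited table. The median over probes used measured ratios, and bounds only where a gene had no measured ratio. The steps were tested on simulated data. Calculations used Python 3.11.15, numpy 2.4.6 and pandas 2.3.3.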

Additional observations from a re-analysis of the deposited data

Results flagged for a closer look

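For 7 members the log2 ratio to the control lay on opposite sides of 0 at 4 h and at a later time, by more than the spot error in each case, of 29 with measured ratios. Over all genes this share was 23.3% (3630 of 15604), so the count is close to that of the array as a whole. The difference between the times was not tested, because there was 1 array per time point, and the ratios share the control array. *Sesn1* read -1.08 at 4 h, 0.24 at 20 h and 0.43 at 32 h, and *Sesn3* read -0.91, 0.23 and 0.58. *Dcxr* read -1.04, 0.99 and 0.71, and *Ddb2* read -1.10 at 4 h and 0.25 at 32 h. These 4 genes lay below the control first and above it later. In the other direction, *Gadd45b* read 0.52, -0.38 and -0.41, *Fas* read 0.66 at 4 h and -0.33 at 20 h, and *Plk3* read 1.92 at 4 h and -0.29 at 20 h. Without scaling, *Fas* and *Plk3* lay above 0 at 20 h as well.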

How the results depend on the processing

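No paired analysis was possible because each condition had 1 array. No median of the members over the control changed sign, and that at 20 h over 32 h, -0.01, lay between -0.05 and 0.14. The count of members lower at 4 h was 1 with normexp correction and 0 at a 3-fold threshold, against 3. The median of the members at 4 h, 0.66, was 0.30 with scaling by the median, 0.45 with quantile normalization, 0.23 with the spike-in controls and 0.38 without scaling, and the median at 20 h, 0.24, was 0.57 without scaling; the median of all genes moved as well. The count of members higher at 20 h, 2, was 5 without scaling, 6 at 1.5-fold and 0 at 3-fold. It stayed 2 with a median of each gene's measured probe ratios, but with *Dcxr* in place of *Cdkn1a*. The middle probe of *Cdkn1a*, with bounds past 2-fold at 20 h and 32 h, is left out of that median. The count lower at 20 h was 1 at 1.5-fold. The count higher at 32 h, 2, was 5 at 1.5-fold, 0 at 3-fold and 1 with that median, where *Cdkn1a* without its bound dropped below 2-fold. At 20 h over 32 h, 1 member was lower at 1.5-fold. With the probe brightest in the control, the bound of *Eda2r* at 4 h was under 2-fold. Ratios near 2-fold (*Aen*, *Ddb2*, *Sesn1* and *Dcxr* at 4 h, *Trp53inp1* at 20 h and 32 h) are within their spot error of the threshold, and levels of *Pmaip1* and *Perp* are limited by the background.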
